A study of Mus musculus with 6 samples.

Results

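The genes described here are markers of microglia and macrophages, read in the RNA-seq of cultured cerebellar granule cells (GCs) after knockdown (KD) of YTHDF2, a protein that binds m6A-modified mRNAs and promotes their decay. A list of 32 gene names was matched to the rows of the count table through the GRCm38 annotation, and all 32 were found among its 53421 rows. The edgeR filter on low counts kept 26 of them, and it kept 17214 rows in all. The cells were primary cultures from the cerebellum of C57BL/6 mice with a wildtype genotype. The labels give the pups as postnatal day 8 and the methods give postnatal days 6 to 8. The libraries of both groups came from GCs infected with lentivirus and selected with puromycin, and the groups were a single hairpin against Ythdf2 (shYthdf2#3, 3 libraries) and a control hairpin (shCtrl, 3 libraries). Each group carries the replicate numbers 1, 2 and 4, and values are given in that order throughout. The sample titles and the library names disagree on which of the libraries were the KD, and the names were followed, so a direction written as shYthdf2 against shCtrl rests on them. The libraries were bulk RNA of all cells in the dish, and the methods name no step that removes glia.

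Microglia are the resident macrophages of the brain. They derive from the yolk sac, depend on signalling through the receptor CSF1R and on the transcription factor PU.1, and take up dying cells and synapses. Macrophages at the borders of the brain, in the meninges and around vessels, share most of this programme and carry additional markers. In the cerebellum of the first postnatal weeks, microglia are amoeboid and gather in the white matter. They enter dissociated cultures of neurons as a small share of the cells, and granule neurons do not normally express these genes.

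Each library held 17246821 to 21546595 counts. Ythdf2 was at 501, 402 and 501 normalized counts with shYthdf2 and 618, 841 and 628 with shCtrl, so every library named as KD lay below every library named as control (log2 fold change -0.57, standard error 0.16, adjusted p = 0.125, Benjamini-Hochberg, in the quasi-likelihood test of edgeR). Normalized counts are counts scaled by TMM factors to a common library size. Replicate 2 stood apart in both groups. Over the 26 members tested, replicates 1 and 4 differed by a chi-square per gene of 1.47 in shYthdf2 and 1.44 in shCtrl, where counting noise alone gives about 1. Replicate 2 differed from them by 95.5 and 97.6 in shYthdf2 and by 142 and 127 in shCtrl. Over all genes tested, replicates 1 and 4 differed by 3.36 and 4.68, which is above counting noise, and they were kept as separate samples. Pairs with replicate 2 in the same group differed by 33.0 to 55.3. A difference above counting noise does not show that replicates 1 and 4 are independent cultures. If they are not, the p-values over 3 libraries against 3 rest on fewer independent samples than 3 per group. The methods call the replicates biological, but neither they nor the labels tie a number to a culture, and what sets replicate 2 apart is not given in the sources used here.

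The microglia and macrophage members were a small part of every library, and their summed level went with KD in opposite directions in different replicates. The 32 members together took 540.3, 301 and 552 CPM (counts relative to the TMM-scaled library total) with shYthdf2 and 199, 523 and 186 with shCtrl. Without Apoe, which astrocytes also express, they took 379.9, 154 and 381 and 88.5, 343 and 84.9, or 0.00849% to 0.0387% of a library. The shYthdf2 libraries of replicates 1 and 4 and the shCtrl library of replicate 2 were high, the other libraries were low, and the groups overlapped. The sum without Apoe was 4.29-fold higher in shYthdf2 than in shCtrl in replicate 1 and 4.49-fold higher in replicate 4, and it was 2.23-fold lower in replicate 2. The group means of all 32 members differed by 162 CPM (two-sided exact permutation test, p = 0.2, where the smallest p that 3 libraries against 3 allow is 0.1). In bulk RNA, fewer cells of a type and less RNA per cell cannot be told apart.

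**Figure D1:**
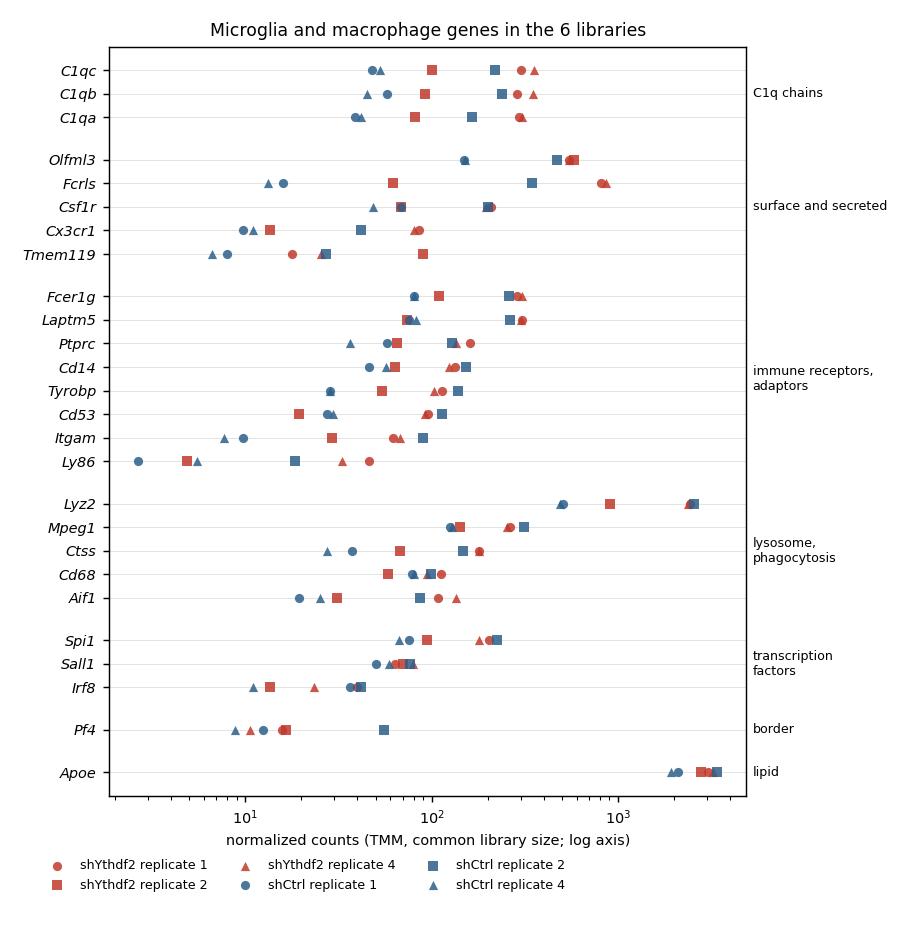
Normalized counts (log axis) of the 26 members tested in each of the 6 libraries, with shYthdf2 in red and shCtrl in blue and a marker shape for each replicate number. In most rows the red circle, red triangle and blue square lie to the right and the red square, blue circle and blue triangle to the left.

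In the comparison of 3 libraries against 3, an adjusted p under 0.05 in edgeR's quasi-likelihood test was reached by 0 of the 26 members, against 0.604% of all genes tested. The members' adjusted p ran from 0.214 to 0.966. At an unadjusted p under 0.05 there was 1 member, Olfml3, higher in shYthdf2 (9.50% of all genes tested), and it was also the only member whose groups did not overlap, again higher (12.6% of all genes tested). DESeq2 gave 0 members at its adjusted threshold, against 8.50% of all genes it gave an adjusted p, and it gave Fcrls no p. At an unadjusted p under 0.05 it gave 4 members, C1qa, Cx3cr1, Tmem119 and Olfml3, all higher (9.30% of all genes). The median log2 fold change was 0.69 over the members and 0.01 over all genes tested, with 24 members above 0 and 2, Irf8 and Pf4, below 0. Without the shCtrl library of replicate 2, 10 members passed the adjusted threshold, all higher in shYthdf2 (C1qa, C1qb, C1qc, Tyrobp, Ctss, Itgam, Fcrls, Olfml3, Apoe and Lyz2; 9.42% of all genes tested were called higher in that fit), while leaving out each of the other libraries in turn gave 0. Over all genes, 829 passed without the shYthdf2 library of replicate 2, and 0 passed without any 1 library of replicates 1 or 4. With replicates 1 and 4 of each group summed as 1 sample, 0 members and 0 of all genes passed. The members' median log2 fold change was then 0.12. Fits in which 0 of all genes passed say nothing about the members in particular.

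Taken number by number, 24 of the 26 members were higher in shYthdf2 in replicates 1 and 4 and lower in replicate 2, where 14.5% of all genes tested had this pattern. The exceptions were Tmem119 and Olfml3. More than 2-fold higher in replicate 1 were 20 members (7.49% of all genes tested), more than 2-fold lower in replicate 2 were 19 (2.52%), and more than 2-fold higher in replicate 4 were 20 (7.54%). The median log2 ratio of the members was 1.83 in replicate 1, -1.28 in replicate 2 and 1.85 in replicate 4, and over all genes tested it was 0.01, 0.00 and 0.00. For 20 members the 95% interval of each ratio, which covers counting error only, lay above 0 in replicates 1 and 4 and below 0 in replicate 2. This count has no share over all genes beside it, so it has no background. For 21 members the shYthdf2 libraries of replicates 1 and 4 and the shCtrl library of replicate 2 all lay above the other libraries, an order held by 6.04% of all genes tested. The 5 without that order were Tmem119, Olfml3, Sall1, Irf8 and Pf4. These counts describe single libraries, since each replicate number has 1 library per group. The direction of replicate 2 in these data was known when the pattern and the order were set. The counts are therefore descriptions and not tests, also beside the shares over all genes.

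**Figure D2:**
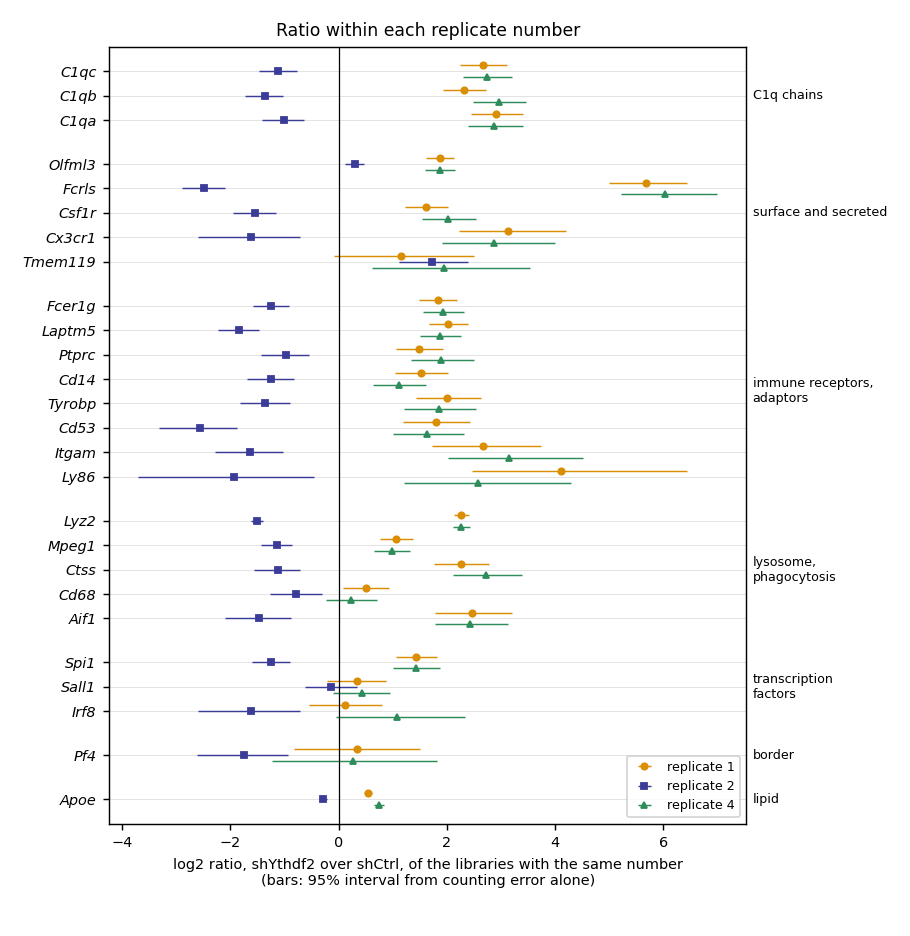
Log2 ratio of shYthdf2 over shCtrl between the libraries that share a replicate number, for the 26 members tested, with bars for the 95% Clopper-Pearson interval from counting error alone. Replicates 1 (orange) and 4 (green) lie to the right of 0 for all 26 members, and replicate 2 (blue) lies to the left for all but Tmem119 and Olfml3.

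The complement chains C1qa, C1qb and C1qc, whose products assemble into the C1q molecule that tags debris and synapses for uptake, lie side by side on chromosome 4 of GRCm38, from 136880129 (C1qb) to 136898803 (C1qa), on the minus strand. C1qa (ENSMUSG00000036887) had 294, 81.4 and 307 normalized counts with shYthdf2 and 39.0, 165 and 41.7 with shCtrl. C1qb had 288, 92.1 and 351 against 57.7, 237 and 45.0, and C1qc had 303, 101 and 352 against 47.9, 218 and 52.7. For all 3 chains the shYthdf2 libraries of replicates 1 and 4 were highest, the shCtrl library of replicate 2 came next, then the shYthdf2 library of replicate 2, and the other shCtrl libraries were lowest. The log2 ratios were 2.91, -1.02 and 2.88 for C1qa, 2.32, -1.37 and 2.96 for C1qb and 2.66, -1.11 and 2.74 for C1qc. The chains kept nearly equal counts relative to each other in each library, at 0.266 to 0.399 of their sum. Over all 6 libraries the log2 fold change reached 1.47 (standard error 0.68, adjusted p = 0.283) for C1qa, 1.10 (standard error 0.71, adjusted p = 0.430) for C1qb and 1.24 (standard error 0.68, adjusted p = 0.349) for C1qc in edgeR's test.

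Among the receptors and surface or secreted products typical of resting microglia, 5 of 9 were tested. Fcrls (ENSMUSG00000015852, chromosome 3 from 87250758 to 87263738), an Fc receptor-like scavenger gene that marks microglia in mice, differed most between libraries of the 26 members tested. It had 813, 62.0 and 865 normalized counts with shYthdf2 and 16.0, 346 and 13.2 with shCtrl. That is 50.9-fold higher in replicate 1 and 65.6-fold higher in replicate 4, but 5.57-fold lower in replicate 2 (log2 intervals 5.0 to 6.43, 5.22 to 6.99 and -2.89 to -2.09). Its log2 fold change over all 6 libraries was 2.21 (standard error 1.30, adjusted p = 0.387), the largest of the members tested, with the largest standard error. Csf1r, the receptor that microglia need for survival, had 209, 68.8 and 196 against 68.3, 201 and 48.3. Cx3cr1, the receptor for the neuronal chemokine fractalkine, had 85.7, 13.6 and 80.7 against 9.76, 41.7 and 11.0. Both had the same split of libraries as the C1q chains. Csf1r overlaps Hmgxb3 on the other strand, which had up to 1608 counts, and the annotated span of Cx3cr1 holds Wdr48 on the other strand with up to 1734 counts. The span of Cx3cr1 also holds Gorasp1 and Csrnp1 on the same strand, with up to 534 and 204 counts. Whether the counting kept the strand is not given in the sources used here, and it would not separate genes on the same strand. A part of the low counts of Csf1r and Cx3cr1 may therefore belong to the overlapping genes.

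Olfml3 and Tmem119 were higher in shYthdf2 in all 3 replicates, unlike the other members. Olfml3 (ENSMUSG00000027848, chromosome 3 from 103722222 to 103738001), which encodes a secreted olfactomedin-like protein, had 546, 582 and 549 normalized counts with shYthdf2 and 149, 474 and 151 with shCtrl. Its shCtrl library of replicate 2 lay close to the shYthdf2 libraries, and the groups did not overlap. The log2 ratios were 1.87, 0.30 and 1.87, and over all libraries the fitted log2 change was 1.12 (standard error 0.44, adjusted p = 0.214). Tmem119 (ENSMUSG00000054675, chromosome 5 from 113793729 to 113800516), a membrane protein widely used to tell microglia from other macrophages, had 17.8, 90.2 and 25.5 against 7.98, 27.1 and 6.59. The shYthdf2 library of replicate 2, which was low for the C1q chains, was the highest for Tmem119. Its log2 ratios were 1.15, 1.73 and 1.95 on counts of 17, 93 and 24 with shYthdf2 and 9, 28 and 6 with shCtrl, so the interval in replicate 1 ran from -0.09 to 2.50. With a batch term for replicate 2 these were the only members past the adjusted threshold, Olfml3 at a log2 difference of 1.31 (adjusted p = 0.0342) and Tmem119 with 1.63 (adjusted p = 0.0136, edgeR), where 10.4% of all genes tested were called higher, a larger share than 2 of 26 members. With the replicate number as a block, the members at an unadjusted p under 0.05 numbered 2, again Olfml3 and Tmem119, with adjusted p = 0.0865 and 0.0569, against 15.4% of all genes tested that were higher at that unadjusted p. A list of mural cell and fibroblast genes, which took 321, 712 and 327 CPM in the shYthdf2 and 205, 584 and 205 CPM in the shCtrl libraries, was highest in the same library as Tmem119. The part of these cells in the Tmem119 and Olfml3 counts was not tested.

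The defining markers of homeostatic microglia were near or at 0. Siglech had 0 counts in all 6 libraries. P2ry12, the purine receptor that steers microglial processes, had 2, 1 and 1 with shYthdf2 and 0, 4 and 0 with shCtrl. Gpr34 had 6, 5 and 6 with shYthdf2 and 4, 1 and 8 with shCtrl, and it overlaps the neuronal gene Cask on the other strand, which had up to 6253 counts. Selplg had 8, 0 and 6 with shYthdf2 and 7, 10 and 3 with shCtrl. The filter removed all 4, together with Trem2 and Mrc1, and no member removed had more than 10 counts in a library. For none of these is a difference between groups detectable at this depth. The members with counts were thus mainly genes that macrophages share (the C1q chains, Csf1r, Lyz2 and Fcer1g), beside the microglial Fcrls and Cx3cr1 and low counts of Tmem119.

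Immune receptors and their signalling adaptors had the same split of high and low libraries as the C1q chains in all 8 genes tested of 9. The order within the high and the low libraries differed between genes. Fcer1g, the common gamma chain of Fc receptors, had 286, 109.6 and 306 normalized counts in the shYthdf2 and 80.7, 259.6 and 80.2 in the shCtrl libraries. Tyrobp, the adaptor (DAP12) that carries signals of TREM2 and related receptors, had 114, 54.3 and 103 against 28.4, 139 and 28.6. Its partner Trem2 itself had only 6, 1 and 3 with shYthdf2 and 4, 8 and 0 with shCtrl. Laptm5, a lysosomal membrane protein of blood cells, had 307, 73.7 and 304 against 75.4, 263 and 82.4. Ptprc, which encodes the leukocyte antigen CD45, had 161, 65.0 and 135 against 57.7, 128 and 36.3. The integrin chain Itgam (CD11b), long used to stain microglia, had 61.7, 29.1 and 67.9 against 9.76, 90.1 and 7.69. Tyrobp and Itgam were highest in the shCtrl library of replicate 2, and for Fcer1g, Laptm5 and Ptprc that library came just below the shYthdf2 libraries of replicates 1 and 4. The tetraspanin Cd53 had 95.1, 19.4 and 92.3 against 27.5, 114 and 29.7, and the lowest ratio of the 26 members tested between the libraries of replicate 2, a log2 ratio of -2.56 (interval -3.32 to -1.87). Cd14, a co-receptor for bacterial lipopolysaccharide, had 133, 64.0 and 124 against 46.1, 152 and 57.1. Ly86, which encodes the MD-1 partner of a Toll-like receptor homologue, had 46.0, 4.85 and 32.9 against 2.66, 18.4 and 5.49, on counts of 44, 5 and 31 with shYthdf2 and 3, 19 and 5 with shCtrl. The 8 genes had log2 fold changes of 0.27 to 1.64 over all 6 libraries, and 0 passed the adjusted threshold.

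Among the lysosomal and phagocytic genes, Lyz2 was the most abundant member apart from Apoe. Lyz2 (ENSMUSG00000069516, chromosome 10 from 117277331 to 117282321), the lysozyme of macrophages and granulocytes, had 2432, 906 and 2364 normalized counts with shYthdf2 and 506, 2566 and 490.0 with shCtrl. The shCtrl library of replicate 2 was the highest of all 6, and the other shCtrl libraries were the lowest. The log2 ratios were 2.27, -1.50 and 2.27, with intervals of 2.13 to 2.40, -1.61 to -1.39 and 2.12 to 2.42. Its paralog Lyz1, which could share reads, had 0 to 13 counts. Ctss, a cysteine protease of antigen-presenting cells, had 179, 67.9 and 180.4 against 37.3, 148 and 27.5. Aif1, which encodes the microglial stain IBA1, had 108, 31.0 and 136 against 19.5, 86.2 and 25.3. Mpeg1, a pore-forming protein of phagosomes, had 262, 143 and 254 against 126, 315 and 129. Cd68, a lysosomal glycoprotein, varied least in this group, with 112, 58.2 and 94.5 against 78.9, 99.8 and 80.2, and its fitted log2 change was 0.03 (standard error 0.28, adjusted p = 0.966).

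The transcription factors did not vary alike. Spi1, which encodes PU.1, had 203, 95 and 180.4 normalized counts in the shYthdf2 and 75.4, 226 and 67.0 in the shCtrl libraries, with the same order of libraries as Lyz2. Irf8, a partner of PU.1 in macrophage development, had 39.7, 13.6 and 23.3 against 36.4, 41.7 and 11.0. Its shCtrl library of replicate 1 lay close to the shYthdf2 library of replicate 1, and its counts were 38, 14 and 22 with shYthdf2 and 41, 43 and 10 with shCtrl. Sall1, which microglia need to keep their identity but which other neural cells also express, had 63.8, 69.8 and 79.6 against 50.6, 76.5 and 59.3. It had the smallest spread of the members tested, 1.57-fold between the highest and lowest library, against a median of 5.06-fold over the 26 members. The 95% counting interval of the Sall1 ratio held 0 in every replicate.

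Of the border macrophage members, Mrc1, the mannose receptor, had 6, 3 and 3 with shYthdf2 and 0, 5 and 3 with shCtrl. Pf4, a chemokine of megakaryocytes and border macrophages, had 15.7, 16.5 and 10.6 normalized counts against 12.4, 55.2 and 8.79, and the shCtrl library of replicate 2 alone was high. Apoe (ENSMUSG00000002985, chromosome 7 from 19696109 to 19699188), the lipid carrier that astrocytes make in quantity, had 3043, 2793 and 3236 against 2089.9, 3411 and 1927. The same libraries were high and low as for Lyz2, but the log2 ratios were small, at 0.54, -0.29 and 0.75. Per kilobase of exon, the mean level over the 6 libraries was highest for Apoe at 67.8 CPM and Lyz2 at 61.9 CPM, followed by Fcer1g at 11.3, C1qb at 8.65, Fcrls at 7.96, C1qa at 7.84 and Tyrobp at 6.15. The library-to-library spread of each of these genes covers more than the gaps between Fcer1g and Tyrobp in that order. Csf1r was at 1.20, Cx3cr1 at 0.473 and Ptprc at 0.280 CPM per kilobase.

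Relative to the summed C1q counts of the same library, 14 of the 23 other members tested had a smaller fold range over the 6 libraries than their own levels had. The range was as large or larger for 9, which were Tmem119, Cd68, Olfml3, Sall1, Mpeg1, Irf8, Apoe, Cd14 and Pf4. Ctss ranged 1.44-fold, Aif1 1.60-fold, Lyz2 1.77-fold, Fcer1g 1.90-fold and Cx3cr1 1.96-fold. Fcrls was an exception with 0.920, 0.226 and 0.856 counts per C1q count with shYthdf2 and 0.11, 0.558 and 0.0945 with shCtrl, so it was not in a fixed ratio to the C1q chains. Tmem119 stood out in a single library, with 0.0201, 0.329 and 0.0252 against 0.0552, 0.0437 and 0.0472. Apoe had 3.44, 10.2 and 3.20 counts per C1q count against 14.5, 5.50 and 13.8, highest where C1q was lowest. Its own level spanned only 1.77-fold over the libraries, so these ratios mostly follow the C1q counts. Sall1, Cd68, Irf8 and Pf4 also ranged over 4-fold relative to C1q. The ratios are descriptions of single libraries, with no test.

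**Figure D3:**
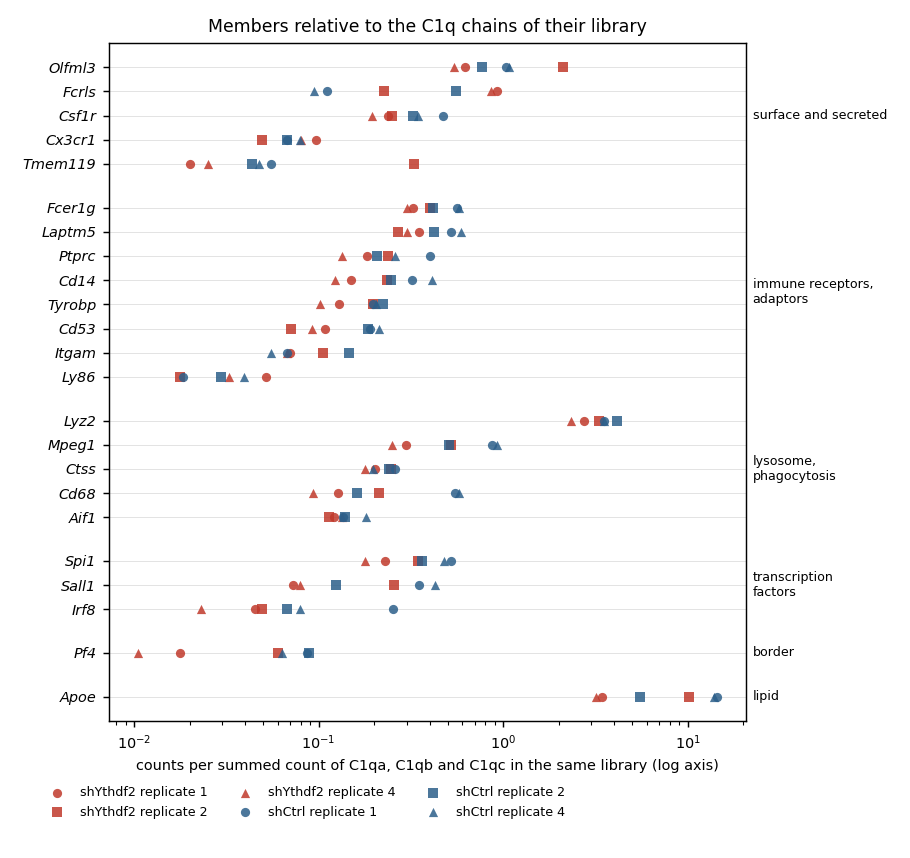
Counts of each other member tested divided by the summed counts of C1qa, C1qb and C1qc in the same library (log axis), with shYthdf2 in red and shCtrl in blue and a marker shape for each replicate number. Ctss, Aif1 and Lyz2 form tight groups of points, while Tmem119 ranges 16.4-fold and Fcrls 9.73-fold.

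Within replicates 1 and 4 alone, 2 libraries against 2, 22 of the 26 members were higher in shYthdf2 at an adjusted p under 0.05 in edgeR's test, against 25.8% of all genes tested, and 0 were lower, against 27.0%. The log2 fold changes of the 22 ran from 0.64 for Apoe to 5.82 for Fcrls, with adjusted p of at most 0.00763. Fcrls had 5.82 (standard error 0.13, adjusted p = 4.56e-14), Ly86 3.28 (standard error 0.45, adjusted p = 1.81e-05), Cx3cr1 2.99 (standard error 0.27, adjusted p = 2.69e-07), C1qa 2.89 (standard error 0.15, adjusted p = 4.34e-10), Lyz2 2.26 (standard error 0.05, adjusted p = 4.15e-14) and Csf1r 1.77 (standard error 0.17, adjusted p = 5.18e-07). Cd68, Sall1, Irf8 and Pf4 did not pass, with values of 0.37, 0.39, 0.36 and 0.28. The median was 1.87 over the members and 0.00 over all genes tested. This fit leaves out replicate 2 with its opposite direction known, and its spread is that between libraries which differ by little more than counting noise, so its p-values measure that spread alone.

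**Figure D4:**
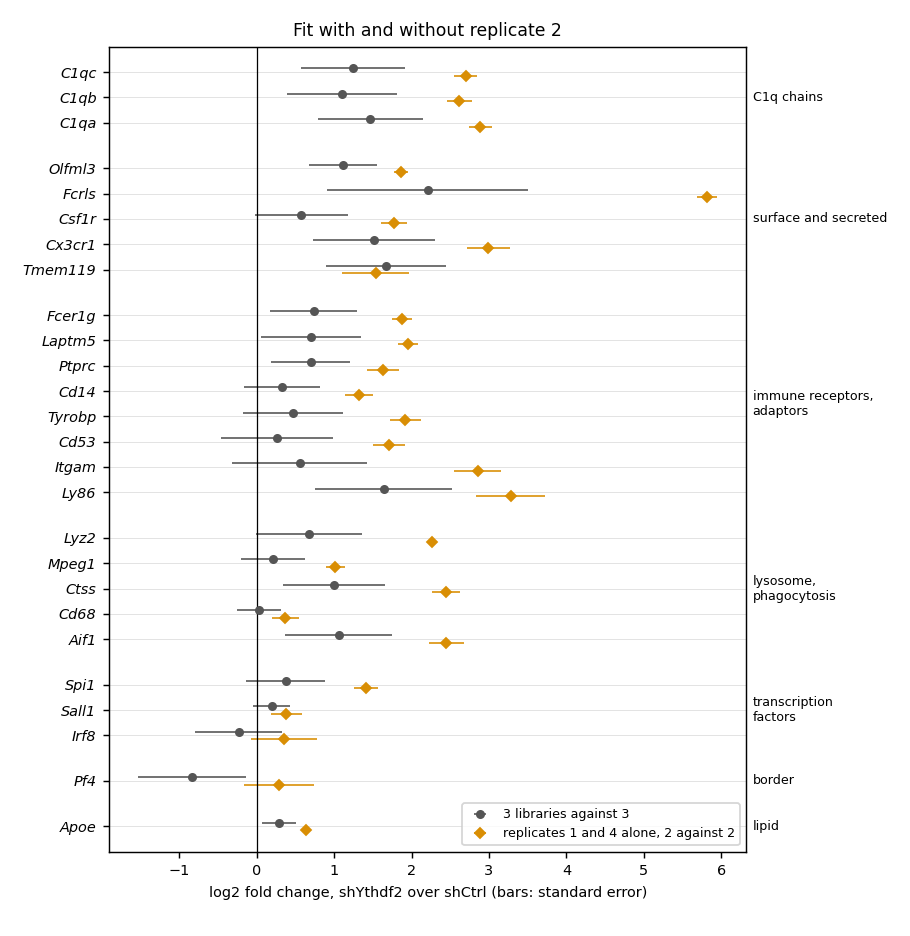
Log2 fold change of shYthdf2 over shCtrl for the 26 members tested, fitted over 3 libraries against 3 (grey circles) and over replicates 1 and 4 alone (orange diamonds), with bars for the standard error. The orange points run up to 5.82 for Fcrls with short bars, and the grey points lie nearer to 0 with long bars for every member but Tmem119 and Pf4.

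Further genes of microglia and macrophages, in lists that hold no member, followed the same libraries. Of 50 other microglia genes (43 tested), 33 were higher in replicates 1 and 4 and lower in replicate 2. In replicates 1 and 4 alone 33 were higher and 4 lower at an adjusted p under 0.05, and 0 passed in the comparison of 3 against 3. Of all genes tested, 14.5% had this pattern. In replicates 1 and 4 alone 25.8% of all genes were higher and 27.0% lower, and 0.604% passed in 3 against 3. The same shares apply to the lists that follow. The genes of this list with the most counts are also made by other cells, and they did not have the pattern. Sparc, a matrix protein, had 2918, 5092 and 2996 normalized counts in the shYthdf2 and 1814, 3482 and 1667 in the shCtrl libraries, and Csf2ra, a cytokine receptor chain, had 1896, 1136 and 2132 against 3883, 1383 and 3554. The third, Coro1a, an actin-binding protein of leukocytes and neurons, had 1335, 1541 and 1384 against 1512, 2391 and 1454. Of 12 border macrophage genes 5 were tested, and 4 of the 5 had the pattern. The scavenger receptor gene Stab1 had 266, 83.4 and 327 against 78.1, 177 and 80.2, Ms4a6c had 72.1, 19.4 and 57.3 against 17.7, 58.1 and 22, and the lectin gene Cd209f had 106, 8.73 and 119 against 3.55, 30.0 and 2.20.

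Among 20 inflammatory cytokine and chemokine genes (15 tested), 12 had the pattern (14.5% of all genes tested). In replicates 1 and 4 alone 10 were higher (25.8% of all genes tested). Ccl3, a chemokine of activated microglia, had 289, 93.1 and 327 normalized counts in the shYthdf2 and 112, 280.0 and 132 in the shCtrl libraries. Nfkbia, the inhibitor that NF-kB induces, had 399, 453 and 377 against 243, 548 and 250.5. Ccl2, which glia and fibroblasts also make, had 166, 372 and 187 against 89.6, 299 and 78.0 and was higher in shYthdf2 in all 3 replicates. Genes induced in damage-associated microglia, most of which other cells express as well, had the pattern in 10 of 19 tested of 22, with a median log2 fold change of 0.05. Fth1, a ferritin chain, had 5828, 6872 and 5915 against 5205, 10283 and 5128, Ctsb, a lysosomal protease, had 4480.4, 6354 and 4429 against 4181, 6439 and 4139, and Timp2, a protease inhibitor, had 2818, 2400.5 and 2686 against 1182, 3279 and 1177. Of 22 genes for ligands and partners of the members (20 tested), 9 had the pattern. Lrp1, a receptor for apolipoprotein E, had 20181, 18565 and 21407 against 21744, 18093 and 21074 and was nearly level. Cd47, the signal that inhibits phagocytosis, had 7096, 5405 and 7072 against 4162, 6469 and 4087, and its receptor gene Sirpa had 3258, 2738 and 3308 against 1936, 3756 and 1920.3. Of these lists, 0 genes passed the adjusted threshold over 3 libraries against 3 in edgeR's test. At an unadjusted p under 0.05, 2 of the other microglia genes were higher and 1 lower, and 1 border macrophage gene, 2 damage-associated genes, 2 ligand or partner genes and 0 cytokine genes were higher. Of all genes tested, 9.50% were higher at that p. Blood cells were scarcely present. Of 21 genes of monocytes, neutrophils and lymphocytes only Cd4, which macrophages can carry, passed the filter, at 15.7, 15.5 and 23.3 against 10.6, 7.75 and 5.49. Of 6 red blood cell genes only Alas2 passed, at 13.6, 20.4 and 15.9 against 17.7, 5.81 and 19.8.

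Markers of other glia varied between the same libraries, but not in the same proportions. Oligodendrocyte lineage genes took 962, 1179 and 992 CPM in the shYthdf2 libraries and 355, 1250.0 and 342 CPM in the shCtrl libraries. Both libraries of replicate 2 were high for them, whereas the microglia and macrophage members were low in the shYthdf2 library of replicate 2. All 14 genes of that list were tested, and 14 were higher in replicates 1 and 4 alone (25.8% of all genes tested). The pattern of the members was held by 9 (14.5% of all genes tested). Mbp, the major myelin protein, had 5749, 8471 and 5990.2 normalized counts against 2609.7, 8637 and 2410.2 and Cnp had 2123, 2489.7 and 2131 against 773, 3028 and 716. Genes of astrocytes and Bergmann glia took 983, 932 and 967 CPM against 633, 1074 and 633, with 9 of 16 in the pattern. Gfap had 4574, 3939 and 4529 normalized counts against 2467, 5663 and 2387 and Fabp7 3043, 2331 and 3144 against 979, 2685 and 979.9, while the glutamate transporter gene Slc1a2 had 934, 1022 and 878 against 3032, 1575 and 3080.4. Endothelial genes took 20.3, 30.6 and 18.9 CPM against 11.9, 17 and 10.7, higher in shYthdf2 in all 3 replicates, with Kdr at 128, 92.1 and 106 normalized counts against 61.2, 70.7 and 51.6, Slco1a4 at 80.5, 67.9 and 81.7 against 41.7, 46.5 and 28.6 and Cdh5 at 58.6, 276 and 56.3 against 33.7, 101 and 28.6. In the mural cell and fibroblast list, the collagen genes Col3a1, Col1a1 and Col1a2 were all highest in the shYthdf2 library of replicate 2, Col3a1 with 1318, 3383 and 1334 against 837, 2964 and 798, Col1a1 with 1174, 3148 and 1215 against 1105, 2805 and 1095 and Col1a2 with 1119, 2763 and 1197 against 768, 2133 and 744. The granule neuron list was nearly level at 12888, 12443 and 12988 CPM against 12946, 13532 and 12764, led by Zic1 with 66405, 62520.4 and 66214 normalized counts against 62199.9, 63336 and 60665, followed by Reln with 55406, 46749.5 and 55127 against 45266, 38992 and 46336 and Cntn2 with 19452, 13507 and 19725 against 25100.5, 23571 and 24635. Of the genes in these 5 lists, 0 passed the adjusted threshold over 3 against 3 in edgeR's test. At an unadjusted p under 0.05, 3 endothelial genes and 1 oligodendrocyte gene were higher, 1 astrocyte gene was higher and 1 lower, and 4 granule neuron genes were lower. The share of all genes tested that were higher at that p was 9.50%. How far differing shares of these cells account for the members' values was not tested.

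**Figure D5:**
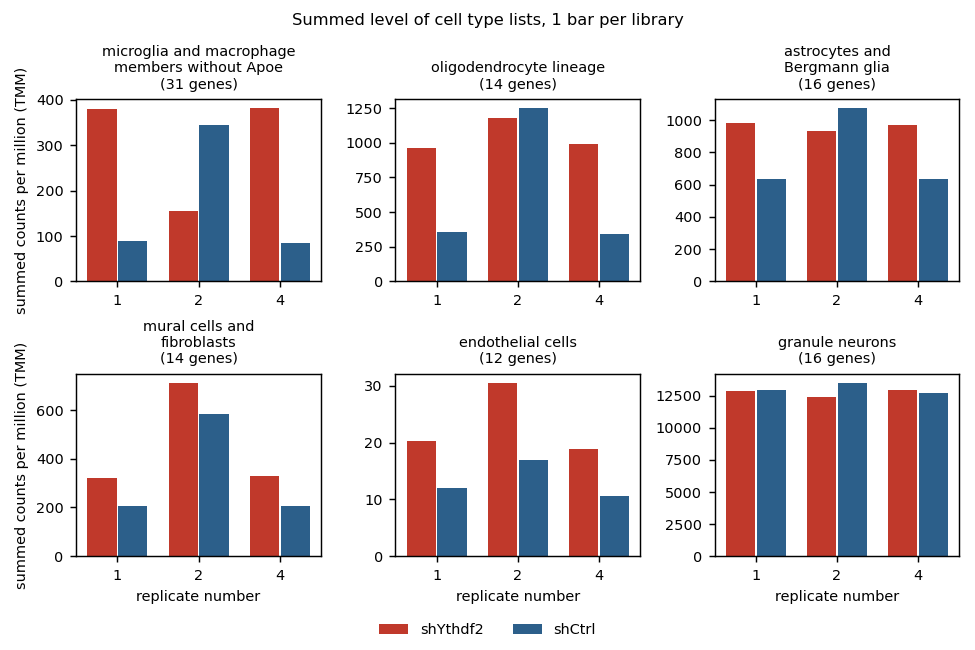
Summed CPM (TMM-scaled) of the members without Apoe and of 5 lists of other cell types, with 1 bar for each library, shYthdf2 in red and shCtrl in blue, grouped by replicate number. The members stand at 379.9 against 88.5 CPM in replicate 1 and at 154 against 343 in replicate 2, while granule neuron genes stay near the same height in all 6 libraries.

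Over the 6 libraries, the genes whose log2 levels were most like the mean of the members (Pearson's r across 4142 genes that vary at least 2-fold, as a description over libraries in which replicates 1 and 4 nearly repeat each other) were Bcas1 with r = 0.999, Adgre1 with 0.999 and Tnf with 0.998, then Samsn1, Lcp2, Ptpn6, Ms4a6d, Irak3, Pik3ap1 and Icam1, the last with 0.992. Bcas1, a gene of premyelinating oligodendrocytes, had 1327, 486 and 1357 normalized counts in the shYthdf2 and 278, 1404 and 258 in the shCtrl libraries. Adgre1, which encodes the macrophage antigen F4/80, had 1287, 398 and 1247 against 253, 1209.9 and 207. Tnf, the cytokine TNF, had 184, 78.5 and 183 against 56.8, 206 and 50.5. Lcp2, an adaptor of immune receptors, had 106, 40.7 and 110.4 against 31.0, 122 and 28.6, and the phosphatase gene Ptpn6 had 145, 71.7 and 153 against 46.1, 179 and 46.1. Among the members themselves, r with this mean, of which they are part except Apoe, was at least 0.90 for 20 of the 26 tested, and lower for Tmem119, Pf4, Irf8, Cd68, Sall1 and Olfml3.

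Since many members varied together, their promoters were compared, in RefSeq windows of 300 bases of GRCm38.p6 (250 before and 50 after the start). Windows were given for 24 of the 32 members. The spelling AGGAAGT, a core of the sites bound by PU.1 and other ETS factors, was sought on both strands. It was found for 11 of the 24 members (C1qb, C1qc, P2ry12, Ctss, Ptprc, Fcrls, Sall1, Cd53, Lyz2, Mrc1 and Pf4) and in 10.7% of the 27025 genes with a window. Of the 16 members with a window that had the common order of libraries, 7 held it, as did 2 (Sall1 and Pf4) of the 4 tested members with a window that lacked the order. The shorter spelling AGGAAG, which the longer one contains, was found for 18 of the 24 members and 38.4% of genes, and the AP-1 spelling TGANTCA for 2 and 8.97%. The longer spelling GAGGAAGT, which holds the first, was found for 4 members and 3.69% of genes, and the composite ETS-IRF spelling of joint sites for 1 and 3.16%. A gene with more than 1 window counts once if any window holds the letters. Shown are the 120 bases before the start of a C1q chain, of the member with the widest spread, of the most abundant macrophage member and of Olfml3, which did not share their order of libraries. Each is read 5′ to 3′ on the strand of its gene, which is the minus strand for all 4, and capitals mark AGGAAGT or its reverse complement. They were chosen after the values were seen.
C1qb (chr4:136886201-136886320): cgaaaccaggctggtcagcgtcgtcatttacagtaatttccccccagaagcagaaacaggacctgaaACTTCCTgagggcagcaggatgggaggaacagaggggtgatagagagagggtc
Fcrls (chr3:87263525-87263644): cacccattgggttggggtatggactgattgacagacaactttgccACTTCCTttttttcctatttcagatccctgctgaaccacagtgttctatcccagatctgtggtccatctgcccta
Lyz2 (chr10:117282273-117282392): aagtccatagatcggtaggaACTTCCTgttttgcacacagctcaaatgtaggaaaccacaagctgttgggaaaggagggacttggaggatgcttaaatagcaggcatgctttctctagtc
Olfml3 (chr3:103738002-103738121): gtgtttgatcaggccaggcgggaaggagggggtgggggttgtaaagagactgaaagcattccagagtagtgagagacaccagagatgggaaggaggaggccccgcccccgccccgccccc
C1qb, Fcrls and Lyz2 each held 1 match in this stretch, all in the reverse complement, which begins 53, 75 and 100 bases before the start. Olfml3 held 0 and was rich in G and C, at 63.3% against 47.5% for Fcrls. A match of letters is a description and not a measured site, and the data hold no measure of PU.1 binding.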

How the data were processed

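The table of counts per gene that the authors deposited, without normalization, holds 3 shYthdf2 and 3 shCtrl RNA-seq libraries made from cultured GCs. By the study's methods, the authors filtered reads for quality and adapters, used HISAT and TopHat2 for alignment (build GRCm38) and HTSeq for counting. The submitters' processing notes name Bowtie 0.12.2 and mm9 instead. Of 53421 rows, 52489 were matched by identifier to GENCODE M21 (GRCm38), and 785 of the others were marked by the authors as unannotated transcripts. Libraries were grouped by their names and descriptions, and the titles say the opposite.

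The test across all genes was that of edgeR 4.0.16 (R 4.3.3), with filterByExpr (minimum count 10 and minimum total 15), TMM factors, a two-sided quasi-likelihood test and Benjamini-Hochberg adjusted p at a threshold of 0.05. CPM and normalized counts used the same TMM factors. Ratios within a replicate number carry 95% Clopper-Pearson intervals, which cover counting error only, and counts of ratios beyond 2-fold used a prior count of 2. The summed level was compared by an exact permutation test. Same-numbered libraries deviated together from their group means (r = 0.251, 0.362 and 0.291 for replicates 1, 2 and 4), so the number was also tried as a block. Since replicates 1 and 4 nearly repeat each other in both groups, these r values are not independent of each other. They do not show that number 1 pairs with 1 or number 4 with 4. The other alternatives were RLE size factors, no factor, DESeq2 1.42.0, limma-voom 3.58.1, other filters, a batch term for replicate 2, replicates 1 and 4 alone and each library left out. Summing replicates 1 and 4 was added after the data were seen. On simulated counts for 3 libraries against 3, of 16875 genes with 197 changed, edgeR found 46.5% of 2-fold and 83.7% of 4-fold changes, and 7.25% of its calls were unchanged genes. The simulated libraries were drawn independently, without the split between replicate 2 and replicates 1 and 4. These rates therefore may not hold for the real libraries. All 32 members were named, with the 3 most abundant genes of each of 14 other lists and the 10 genes most like the members. Of the list genes so chosen, 2 are not reported here. The latter needed 20 or more normalized counts on average and a range of at least 2-fold, and Ythdf2 was named as a check of the labels. Cd5l was chosen after its values were seen. The members and lists were chosen with earlier results of these data known. Promoters came from RefSeq, and analyses in Python 3.11.15 used numpy 2.4.6, pandas 2.3.3, scipy 1.17.1 and matplotlib 3.10.9.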

Additional observations from a re-analysis of the deposited data

How the results depend on the processing

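With 17246821 to 21546595 counts per library, members under about 10 counts could not be compared. Over 3 libraries against 3, 0 members passed the adjusted threshold with RLE size factors, library size alone, DESeq2, limma-voom, the replicate block, both other count filters and replicates 1 and 4 summed; a batch term for replicate 2 gave 2, replicates 1 and 4 alone gave 22, and leaving out a library gave 0 to 10 (10 without shCtrl replicate 2). At an unadjusted p under 0.05 there were 4 members with DESeq2, 7 without the filter, 2 with the replicate block, 2 with the batch term, 23 in replicates 1 and 4 alone, 0 with these summed and 0 to 21 with a library left out. Of all genes, 9.30% with DESeq2 and 15.4% with the replicate block were higher at that p. For the other settings in this count the share of all genes was not taken, so their member counts have no background. Genes past the adjusted threshold numbered 104, and 1321 with DESeq2, 24 with limma-voom, 639 without the filter, 232 with the replicate block, 3799 with the batch term, 9186 in replicates 1 and 4 alone, 0 with these summed and 0 to 3239 with a library left out (3239 without shCtrl replicate 2, 829 without shYthdf2 replicate 2). The replicate block changed no other call on a member. The members' median log2 fold change stayed above 0 throughout, from 0.12 with replicates 1 and 4 summed to 1.87 in replicates 1 and 4 alone. Within those 2 replicates, other normalizations, tools and filters gave 19 to 22 members. The summed level stayed higher in shYthdf2 under every alternative run on it, at 103.5 to 272 CPM with a library left out.

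The direction of a member's log2 fold change reversed in 9 genes, which were Tyrobp (-0.0132 with replicates 1 and 4 summed), Cd68 (-0.0216 with limma-voom, -0.00339 with replicate block, -0.147 with replicates 1 and 4 summed, -0.18 to 0.255 with a library left out), Itgam (-0.0297 with replicates 1 and 4 summed), Mpeg1 (-0.136 with replicates 1 and 4 summed, -0.024 to 0.784 with a library left out), Cd53 (-0.298 with replicates 1 and 4 summed, -0.0787 to 1.26 with a library left out), Spi1 (-0.0409 with replicates 1 and 4 summed), Irf8 (0.357 in replicates 1 and 4 alone, -0.696 to 0.0739 with a library left out), Cd14 (-0.0618 with replicates 1 and 4 summed) and Pf4 (0.284 in replicates 1 and 4 alone, -1.23 to 0.413 with a library left out). The cause was not tested.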

Other observations

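Cd5l, a secreted scavenger receptor of tissue macrophages that was chosen after its values were seen, was nearly all or none between libraries. Replicates 1, 2 and 4 of shYthdf2 had 42, 1 and 45 counts of it, against 0, 37 and 0 for shCtrl. This is the same split of libraries as for Fcrls and the C1q chains.

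Genes of the interferon response took 60.9, 81.8 and 65.6 CPM in the shYthdf2 libraries and 40.8, 90.2 and 35.8 CPM in the shCtrl libraries. Both libraries of replicate 2 were high. Higher in shYthdf2 in replicates 1 and 4 and lower in replicate 2 were 10 of the 14 genes tested (14.5% of all genes tested). Ifitm3, which blocks entry of viruses, had 179.8, 329.6 and 184 normalized counts against 102, 328 and 100 and Ifi27 had 114, 183 and 136 against 69.2, 232 and 71.4. Of the list, 0 genes passed the adjusted threshold in edgeR's test over 3 libraries against 3 (0.604% of all genes tested). An unadjusted p under 0.05 was reached by 0, where 9.50% of all genes tested were higher at that p. Genes of granule cell progenitors and dividing cells were nearly level, at 304, 325 and 301 CPM against 340.4, 324 and 332, with 2 of 10 in that pattern. Ptch1, the Sonic hedgehog receptor, had 3856, 3721 and 3799.6 normalized counts against 4738, 3722 and 4601, Mycn had 872, 1251 and 951 against 692, 1071 and 622 and Pcna had 558, 604 and 521 against 604, 789 and 643.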
